A study of Hipposideros armiger and Mus musculus with 20 samples.

Results

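Dio2 and Thrsp are 2 of the 14871 genes in the table of 20 adipose RNA libraries, and they were found by matching the mouse Ensembl identifiers ENSMUSG00000007682 and ENSMUSG00000035686 to their symbols. Dio2 encodes the deiodinase that removes an iodine atom from thyroxine inside the cell and so makes the active hormone triiodothyronine. Thrsp encodes the thyroid hormone responsive protein, a small protein of fat-making tissues whose gene is a long-known target of triiodothyronine and of carbohydrate feeding. In brown fat, cold drives sympathetic nerves that act on beta-adrenergic receptors, and cyclic AMP then raises Dio2, so the tissue can make its own active hormone. The hormone binds nuclear receptors, which pair with retinoid X receptors and act on genes of heat production and fatty acid synthesis.

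The mouse libraries came from the ICR strain, and the bat libraries from the great roundleaf bat, Hipposideros armiger, labelled as wild type. Each animal group had been kept at 30 °C or at 10 °C for 7 days, and no other agent or allele is given. Both species gave iBAT, the brown fat between the shoulder blades, and sWAT, the white fat under the skin, and the bat also gave aWAT, white fat of the abdomen. This makes 10 groups of 2 libraries, 8 libraries in mouse and 12 in bat, with 1 female and 1 male library in each group. Ages, and whether the depots of one sex and temperature came from the same animal or from pooled animals, are not given in the labels, so p-values measure the spread between these libraries.

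Values are FPKM, a count of fragments divided by transcript length and library size, and bat reads too were assigned to mouse genes. The values of 1 library add up to between 263338 and 305098 FPKM for mice and between 294103 and 358510 FPKM for bats. Fragment totals were unknown, but low values gave the relative depth of the libraries of 1 species: 0.95 to 1.109 for mice, 0.624 to 1.081 for bats. The 4 bat iBAT libraries were the shallowest, between 0.624 and 0.738. In the bat, Actb had a median of 0 FPKM and Eef1a1 one of 0.534 FPKM although every cell uses both genes. A low bat value was therefore not read as absence, and levels were not compared between species.

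Dio2 lies on the minus strand of chr12:90724552-90738438 in GRCm38, and GENCODE M21 gives its transcript 2 exons, 5815 bases and a coding sequence of 798 bases. Thrsp lies on the minus strand of chr7:97412938-97417730, with 2 exons, a transcript of 1277 bases and a coding sequence of 450 bases. A lncRNA on the opposite strand, Gm26512, overlaps Dio2 by 238 bases and is not analysed here. Whether the authors' counting used strand is not given in the sources used here, so reads of this overlap cannot be assigned to 1 of the 2 genes.

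DIO2 is a selenoprotein, in which a stop codon in the reading frame is read as selenocysteine with the help of an RNA element in the 3′ untranslated region. The coding sequence of Dio2 holds 2 such TGA codons and that of Thrsp holds 0. The 2 stretches are shown because they set what the measured Dio2 RNA can yield as protein. Each is the coding strand of the GENCODE M21 transcript, 5′ to 3′, with the annotated selenocysteine codon in capitals, and the positions are those of the codon.
Dio2 codon 130, chr12:90729823-90729825, minus strand: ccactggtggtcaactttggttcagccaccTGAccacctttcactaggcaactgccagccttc
Dio2 codon 263, chr12:90729424-90729426, minus strand, ending at the last coding base before the stop codon: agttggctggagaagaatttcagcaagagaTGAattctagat
The first codon, 130 of 266, is in the active centre of the enzyme, and the second is close to the end of the protein. Both lie in the second exon. These values of RNA say nothing of how often either codon was read through, nor of the amount or activity of DIO2 protein.

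Both genes rose in the cold in both mouse depots. In mouse iBAT, Dio2 stood at 0.428 FPKM in the female and 0.261 FPKM in the male library at 30 °C. At 10 °C it stood at 9.90 and 7.05 FPKM. Both cold libraries were thus far above both warm ones, 23.1 times in females and 27.1 times in males, with no overlap. From a level above 30.6% of genes in the warm female library it moved to one above 80.3% of genes in the cold female library. The fitted change was 3.10 ± 0.24 (SE, n = 2 per group, adjusted p = 0.00575), beside 12.8% of all 10689 genes called in either direction in this comparison. Changes here are log2 ratios of FPKM + 1 from limma, less the median of all genes in the comparison, and a gene is called at an adjusted p under 0.05. Because 1 FPKM is added, this scale understates the change of a gene as low as warm Dio2. With 0.1 in place of 1 the change in iBAT was 4.71. A gene was tested only if 2 libraries of the species reached 1 FPKM, and in mouse Dio2 did so only in cold libraries. The filter thus let it in through the groups where it is high. Without the filter Dio2 was still called in both mouse depots.

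Thrsp in mouse iBAT stood at 702 FPKM in the female and 662 FPKM in the male library at 30 °C, and at 3876 and 3280 FPKM at 10 °C. Here too both cold libraries exceeded both warm ones, 5.52 times in females and 4.95 times in males. Thrsp rose by 2.68 ± 0.54 (SE, adjusted p = 0.0391 by limma). On the FPKM scale, which is per length, Thrsp is an abundant RNA in fat and Dio2 a sparse one. In every one of the 20 libraries Thrsp was above at least 97.94% of genes, while Dio2 never passed 80.3%.

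The iBAT calls rest on all 4 libraries. Leaving out any 1 of them kept the size of both changes (2.90 to 3.29 for Dio2, 2.58 to 2.77 for Thrsp) but ended both calls, with adjusted p between 0.0617 and 0.0779 for Dio2 and between 0.148 and 0.186 for Thrsp. The Thrsp call also ended without the filter on low values (2.56) and with quantile normalization (2.04). In the whole comparison 1369 genes were called, 1468 without the filter and 480 with quantile normalization. Leaving out any 1 of the 4 libraries also cut the calls in the whole comparison, so ended calls were not particular to Dio2 and Thrsp. Markers of other cell types also differed between these libraries: the summed level of the 9 measured muscle markers was 1831 and 1445 FPKM in the warm libraries, 8.78 FPKM in the cold female and 860 FPKM in the cold male. Dio2 was high in both cold libraries, and both of these held less muscle RNA than either warm one. Of all genes, 10.2% were called lower in this comparison. Of 5 macrophage markers 3 were called lower in the cold, and their sum went from 40.5 and 34.0 FPKM to 21.5 and 20.8 FPKM. Of 6 endothelial markers 1 was called lower (sum 207 and 188 FPKM warm, 126 and 116 FPKM cold). B lymphocyte markers, of which 0 of 6 were called, summed to 192 and 16.0 FPKM warm and to 8.61 and 5.18 FPKM cold. The part of these cells in the result was not tested. As in any bulk sample, fewer cells of a type and less RNA per cell cannot be told apart.

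In mouse sWAT, Dio2 was 0.176 FPKM in the female and 0.184 FPKM in the male library at 30 °C, the lowest mean of any mouse group. Cold libraries had 4.35 and 6.82 FPKM. The cold to warm ratio was 24.8 in females and 37.0 in males, again without overlap. Dio2 rose by 2.82 ± 0.24 (SE, n = 2 per group, adjusted p = 0.00727 by limma), in a comparison in which 33.2% of genes were called. When only the sWAT libraries were fitted, the change was the same but the call ended (adjusted p = 0.122 by limma). As in iBAT, no warm library helped Dio2 pass the filter.

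Thrsp spread more in mouse sWAT. It was 99.6 FPKM in the warm female and 296 FPKM in the warm male library, and 2898 and 1415 FPKM in the cold female and male. The sexes changed places: the female was the lower of the warm pair and the higher of the cold pair, so the ratio was 29.1 in females and 4.79 in males. Thrsp rose by 3.92 ± 0.54 (SE, adjusted p = 0.0128 by limma), which ranked 44 of 10689 genes by absolute size before centring, while Dio2 ranked 229. This call too ended in the fit of the sWAT libraries alone (adjusted p = 0.122 by limma).

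Other cell types differed between the same sWAT libraries. B lymphocyte markers summed to 12109 FPKM in the warm female, 2356 in the warm male, 1237 in the cold female and 31.5 in the cold male. Fat cell markers summed to 2042 FPKM in the warm female, less than in the warm male (4739), cold female (3737) and cold male (5672). The warm female library, lowest in fat cell markers and highest in B lymphocyte markers, also had the lowest Thrsp and Dio2 of all mouse libraries. Without it the change was 2.44 for Dio2 and 3.09 for Thrsp, and both calls ended (adjusted p = 0.0510 and 0.0587 by limma). The muscle marker sum was 1643 FPKM in the cold male and at most 32.6 FPKM in the other sWAT libraries, and epithelial markers summed to 106 and 52.9 FPKM in the females against at most 1.47 in the males. Of 5 T lymphocyte markers 4 were called lower in the cold (sum 215 and 223 FPKM warm, 69.8 and 1.38 FPKM cold), and 1 of 5 macrophage markers. Of all genes, 26.5% were called lower, so the macrophage count does not set these markers apart. The part of these cells in the results was not tested.

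**Figure D1:**
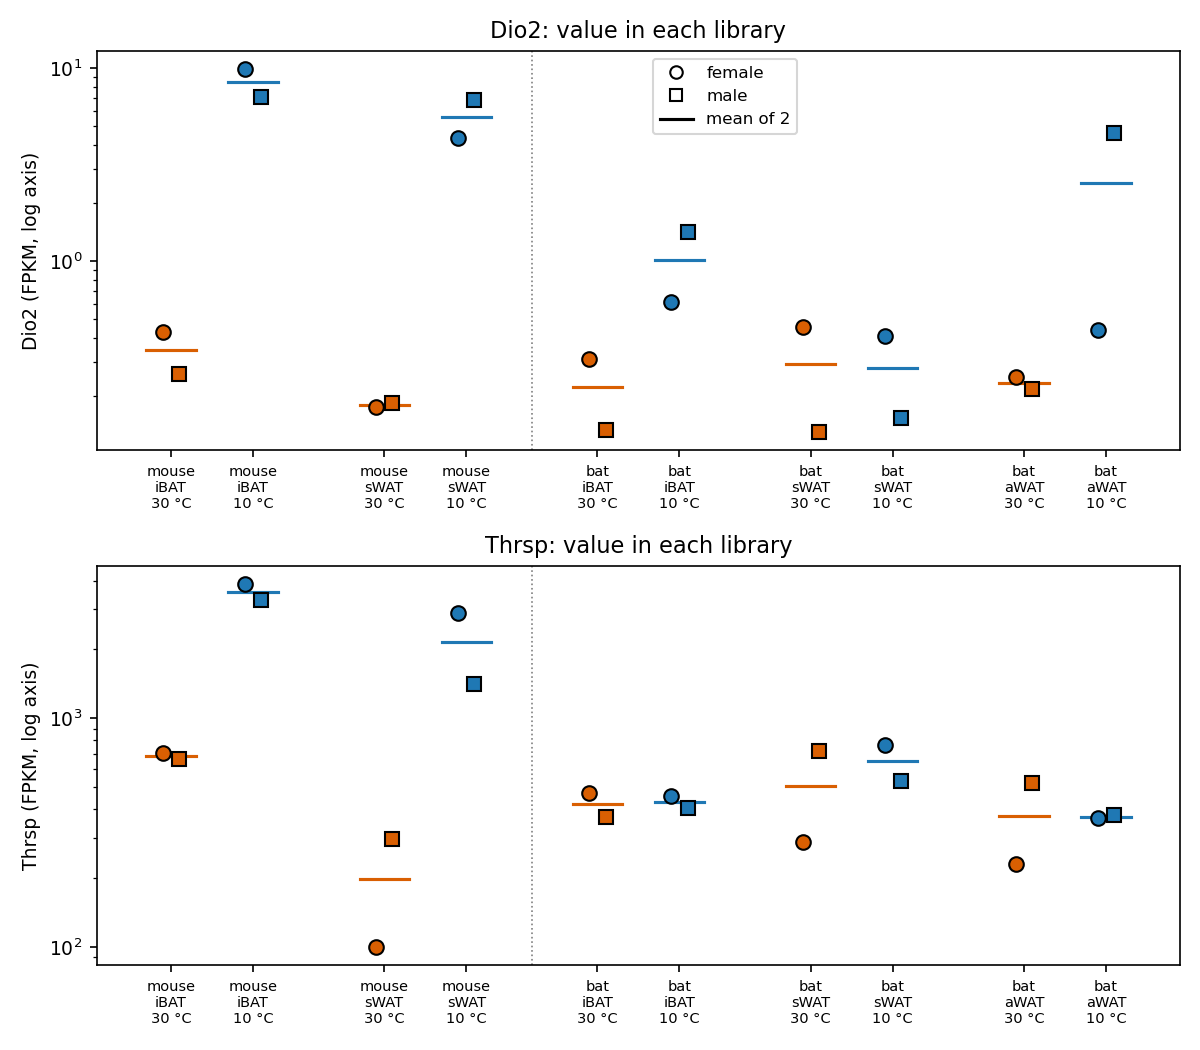
Dio2 (top) and Thrsp (bottom) in each of the 20 libraries, in FPKM on a log axis, with the group on the horizontal axis, circles for female and squares for male libraries, orange for 30 °C, blue for 10 °C and a bar at the mean of 2. In mouse, every cold point lies above every warm point of its depot; in bat, the cold and warm points of Thrsp overlap in 3 of 3 depots, and Dio2 is high in 1 of 2 cold aWAT libraries.

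Between the mouse depots, the order of group means was the same for both genes: iBAT at 10 °C, sWAT at 10 °C, iBAT at 30 °C and sWAT at 30 °C. The means were 8.48, 5.58, 0.344 and 0.180 FPKM for Dio2, and 3578, 2157, 682 and 198 FPKM for Thrsp. No neighbours in this order overlapped. At 30 °C Thrsp was higher in iBAT than in sWAT by 2.56 ± 0.54 (SE, adjusted p = 0.0198 by limma), where 58.6% of all genes were called, 48% lower and 10.7% higher. Leaving out the warm sWAT female (1.72 without it), the warm iBAT female or the warm iBAT male ended this call, with adjusted p up to 0.0805. The marker sums given above differ between these libraries too, and their part was not tested. The Dio2 difference at 30 °C, 0.76 ± 0.24 (95% interval 0.19 to 1.33), did not pass (adjusted p = 0.519 by limma). At 10 °C, where 29.7% of genes were called, neither gene passed. Dio2 differed by 1.00 ± 0.24 (95% interval 0.43 to 1.57, adjusted p = 0.124 by limma). The p-values of Dio2 test the uncentred differences, 0.185 at 30 °C and 0.535 at 10 °C, so these verdicts depend on the zero used. At 10 °C Dio2 was called with median-ratio scaling (adjusted p = 0.0317 by limma), and leaving out 1 library moved it between 0.59 and 1.38. Thrsp differed by 1.28 ± 0.54 (adjusted p = 0.264 by limma, 95% interval -0.01 to 2.57). The cold response in iBAT less that in sWAT was 0.30 ± 0.34 for Dio2 (95% interval -0.51 to 1.11, adjusted p = 0.586) and -1.22 ± 0.76 for Thrsp (95% interval -3.04 to 0.61, adjusted p = 0.416), where 0.0374% of genes were called.

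In the bat, no change of Thrsp with temperature was called in any depot. In iBAT it was 472 and 369 FPKM at 30 °C and 455 and 405 FPKM at 10 °C, female first, so the cold pair lay inside the warm pair. The change was 0.14 ± 0.45 (SE, n = 2 per group, 95% interval -0.87 to 1.15, adjusted p = 0.978 by limma), with 1.94% of all 11025 genes called. Bat iBAT carried abundant RNA of Ucp1, the mitochondrial uncoupling protein of brown fat, with 2886 and 2670 FPKM warm and 10404 and 7239 FPKM cold, a change of 1.74 ± 0.36 that missed the threshold (adjusted p = 0.0502). Ucp1 RNA was thus abundant in the libraries in which Thrsp stayed within its warm range, and no link between these genes was tested.

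Bat sWAT had Thrsp at 286 and 720 FPKM warm and 767 and 531 FPKM cold, and aWAT had 229 and 521 FPKM warm and 368 and 375 FPKM cold. In both depots the female value was higher in the cold (2.68 and 1.60 times) and the male value lower (0.738 and 0.720 times). The fitted changes were 0.42 ± 0.45 in sWAT (95% interval -0.59 to 1.43, adjusted p = 0.765) and 0.24 ± 0.45 in aWAT (95% interval -0.77 to 1.25, adjusted p = 0.899 by limma). Of all genes, 1.08% were called in sWAT and 14.8% in aWAT. The 2 lowest Thrsp values of the bat were those of the 2 warm female white fat libraries.

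Dio2 was low in the bat and high in few libraries. In sWAT it was 0.453 and 0.129 FPKM warm and 0.408 and 0.153 FPKM cold, female first. The change there was -0.08 ± 0.50 (SE, 95% interval -1.19 to 1.04, adjusted p = 0.999 by limma). In iBAT it was 0.312 and 0.132 FPKM warm and 0.613 and 1.41 FPKM cold. Both cold iBAT libraries exceeded both warm ones, 1.97 times in females and 10.7 times in males, but the change of 0.79 ± 0.50 did not pass (95% interval -0.32 to 1.91, adjusted p = 0.470). With 0.1 in place of 1 FPKM added, as given for mouse iBAT, this change was 1.88, again not called.

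In bat aWAT, Dio2 was 0.250 FPKM in the warm female, 0.218 in the warm male, 0.436 in the cold female and 4.62 in the cold male. The cold male was thus 21.2 times its warm counterpart and the cold female 1.74 times hers. The change was 1.34 ± 0.50 and was not called (95% interval 0.22 to 2.45, adjusted p = 0.130). With 0.1 FPKM added it was 2.43, not called either. It depended on the cold pair: without the cold female it was 2.22, and without the cold male it was 0.46. Dio2 entered the bat fit only because the cold male libraries of aWAT and iBAT reached 1 FPKM, the minimum asked of 2 libraries. Without the cold female, the cold aWAT group is a single library that let the gene in, so no call is drawn from that fit. Muscle markers summed to 17.8 FPKM in the cold male aWAT library and 23.5 FPKM in the cold female. Endothelial markers, 3 of 6 called lower in the cold, summed to 191 and 160 FPKM warm and to 81.0 and 122 FPKM cold, female first. Of 9 fat cell markers 2 were called lower and 1 higher, and their sums went from 8562 and 10899 FPKM to 8168 and 8179 FPKM. Of all genes, 6.49% were called lower and 8.33% higher. The part of these cells was not tested.

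Among the bat depots, with all libraries, no difference of either gene passed in the 6 comparisons at a matched temperature, in which 23.8% and 39.7% of genes were called for iBAT against sWAT at 30 °C and 10 °C, 19.9% and 0.907% for iBAT against aWAT, and 0.916% and 21.7% for aWAT against sWAT. The largest was Dio2 in aWAT against sWAT at 10 °C, 1.26 ± 0.50 (SE, adjusted p = 0.128). It too depended on the cold aWAT pair: without the cold female of aWAT it was 2.15, and without the cold male it was 0.36. Without that female, Dio2 in cold iBAT less that in cold aWAT was -1.28, and the cold response in aWAT less that in sWAT was 2.29. In the fits without that female, the cold aWAT group is the male library alone, which helped Dio2 pass the filter. No call is drawn from them. Ordered by mean, bat Thrsp ran from 649 FPKM in cold sWAT to 372 FPKM in cold aWAT, and every neighbouring pair of groups overlapped. Bat Dio2 ran from 2.53 FPKM in cold aWAT and 1.01 FPKM in cold iBAT, which overlapped, to between 0.222 and 0.291 FPKM in the other 4 groups, which overlapped one another in this order. With all libraries, the cold response of neither gene differed between 2 bat depots at the threshold, where 0.608% (iBAT less sWAT), 0.245% (iBAT less aWAT) and 3.8% (aWAT less sWAT) of genes were called.

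The cold responses were then compared between species in 1 fit of the 9400 genes that passed in both. In each species Dio2 passed only through cold libraries. In sWAT the bat response was lower than the mouse response. The difference, bat less mouse, was -2.88 ± 0.63 for Dio2 (adjusted p = 0.0179) and -3.48 ± 0.74 for Thrsp (adjusted p = 0.0149 by limma), where 21.5% of genes were called, 17% higher and 4.57% lower. Each call ended without any 1 of 3 of the 8 sWAT libraries, the warm mouse female and the cold bat male for both genes, the cold mouse male for Dio2 and the warm bat male for Thrsp. Over all 8 fits without 1 library, the differences ran from -3.25 to -2.51 for Dio2 and from -4.30 to -2.66 for Thrsp. In iBAT the differences were -2.32 ± 0.63 for Dio2 (adjusted p = 0.0743) and -2.55 ± 0.74 for Thrsp (adjusted p = 0.0904 by limma), and 4.15% of genes were called. The iBAT differences missed the threshold in this fit and passed it for both genes when only iBAT libraries were fitted (adjusted p = 0.0168 and 0.00642). The same change of fit ended the sWAT call of Thrsp (adjusted p = 0.0939). How bat reads were assigned to mouse genes is not given in the sources used here, and a gene read less completely in the bat is measured with less depth. The bat genome annotation in RefSeq (ASM189008v1) lists 1 DIO2 and 1 THRSP gene.

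**Figure D2:**
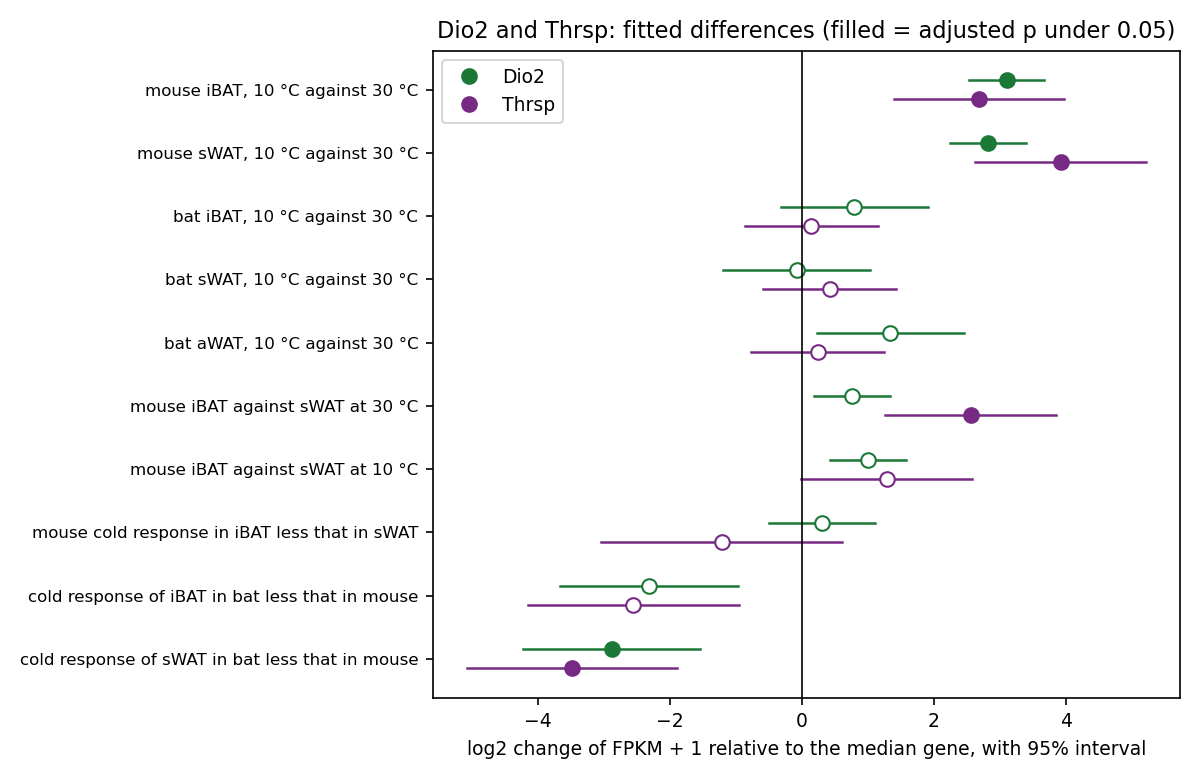
Fitted log2 difference of FPKM + 1 relative to the median gene (horizontal axis) for Dio2 in green and Thrsp in purple in 10 comparisons, with 95% intervals as lines and filled points where the adjusted p was under 0.05. The 4 mouse cold responses lie between 2.68 and 3.92, the 6 bat ones between -0.08 and 1.34.

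The other genes of the pathway came from lists by role, without Dio2 and Thrsp. Of their 66 genes in the table, 63 were tested in each species. In mouse iBAT 10 were called higher and 8 lower, beside 2.63% and 10.2% of all genes. In mouse sWAT 16 were called higher and 9 lower, beside 6.71% and 26.5%. Bat aWAT had 12 higher and 3 lower, beside 8.33% and 6.49%. Bat iBAT had 0 higher and 1 lower, and bat sWAT 0 and 0, beside 1.94% and 1.08% called in either direction. The lower calls in mouse depended on scaling, since the median gene was itself lower in the cold, by -0.30 in iBAT and -0.37 in sWAT: 8 in iBAT became 2 with median-ratio scaling and 1 with quantile normalization, and 9 in sWAT became 1 and 2. Over all genes, median-ratio scaling gave 626 higher and 356 lower calls in mouse iBAT in place of 281 and 1088, and 1130 and 727 in mouse sWAT in place of 717 and 2828. Without any 1 of the 4 mouse iBAT libraries 0 genes were called in either direction, and without the warm female of mouse sWAT 3 higher and 0 lower. Without a library of bat aWAT 5 to 8 were called higher, and there the calls of Ucp1, Gpd2, Slc7a8 and Pstk held without each of the 4. The median change of the 63 genes, on the relative scale, was 0.10 in mouse iBAT, 0.34 in mouse sWAT, 0.02 in bat iBAT, 0.10 in bat sWAT and 0.18 in bat aWAT, where the median of all genes is 0 by construction.

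Signals upstream of Dio2 did not all move with it. Adrb3, the beta-adrenergic receptor most tied to fat cells, was not called in either mouse depot (0.13 ± 0.39 in iBAT, -0.05 ± 0.39 in sWAT) and stood between 32.2 and 95.8 FPKM in all 8 mouse libraries. In mouse sWAT the receptor Adrb1 rose by 1.53 ± 0.17 and Prkaca, a catalytic subunit of the cyclic AMP-dependent kinase, by 1.81 ± 0.22. Its regulatory subunit gene Prkar2b rose by 2.13 ± 0.54, a call lost with either scaling. Adrb1 was the 1 list gene called in bat iBAT, where it was lower (-1.19 ± 0.25) and lost its call with either scaling and without any 1 library. Ppargc1a, a coactivator of heat-producing genes, was called in bat aWAT (2.55 ± 0.57) and in neither mouse depot (0.40 ± 0.37 and 1.35 ± 0.37).

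Of the other deiodinases, Dio3, which inactivates the hormone, was at 0 FPKM in the 4 mouse iBAT libraries and at most 0.250 FPKM in any library. Dio1 was not analysed here. Among the transporters, Slc7a8, an amino acid transporter that also carries thyroid hormones, rose in bat aWAT by 1.99 ± 0.29 (adjusted p = 0.00368 by limma), from 0.453 and 0.523 FPKM to 6.78 and 2.74 FPKM. Slc3a2, the shared heavy chain of such transporters, and Crym, which binds the hormone in the cytosol, were called in no cold comparison, and Slco1c1 was at most 0.248 FPKM in every library and was not tested.

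The receptor genes were called in both directions. Thra, higher than the other receptor gene Thrb in each mouse library, was lower in cold mouse iBAT (35.9 and 25.4 FPKM warm, 15.2 and 12.3 FPKM cold, -0.79 ± 0.21, adjusted p = 0.0283), a call lost with median-ratio and quantile scaling. In bat aWAT Thra rose instead by 1.19 ± 0.26 (adjusted p = 0.0263 by limma), from 15.8 and 14.0 to 42.2 and 24.2 FPKM. For iBAT, the response of Thra in bat less that in mouse was called (1.29 ± 0.35, adjusted p = 0.0305 by limma). Whether this call holds with other scalings, under which the mouse iBAT call was lost, was not examined. Over all genes, the 299 higher and 91 lower calls of this comparison became 183 and 201 with median-ratio scaling. Thrb was called in none of the 5 cold comparisons. Among the partners, Rxrg rose in mouse sWAT (1.62 ± 0.39, lost with median-ratio scaling) and bat aWAT (1.73 ± 0.39, lost with quantile scaling), Rxra was lower in bat aWAT (-0.80 ± 0.20) and Rxrb was not called.

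Coregulators of the receptor were called only as lower in mouse, 4 of 10 in iBAT, where 10.2% of all genes were called lower, and 5 of 10 in sWAT, where 26.5% were. Ncor1, a corepressor, was lowest in iBAT (-0.98 ± 0.19), followed by Gps2, a subunit of its complex (-0.82 ± 0.19), the coactivator Ncoa3 (-0.60 ± 0.21) and the deacetylase Hdac3 (-0.49 ± 0.15). With median-ratio scaling Ncor1 alone of these 4 kept its call, and with quantile normalization none did. In sWAT the call of Ncoa3 (-0.85 ± 0.21) held under both scalings. In bat aWAT Ncoa1 was called higher (0.91 ± 0.20).

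DIO2 protein is short-lived: WSB1 is the adaptor of a ubiquitin ligase that marks it, MARCH6 another ligase, and USP33 removes the mark. Wsb1 was lower in mouse sWAT (-0.86 ± 0.27, adjusted p = 0.0242, lost with median-ratio scaling) and bat aWAT (-0.85 ± 0.27, adjusted p = 0.0391 by limma), and was not called in mouse iBAT (-0.57 ± 0.27, adjusted p = 0.0807). March6 was lower in mouse iBAT (-0.45 ± 0.14, lost with either scaling). Usp33 was called in no cold comparison. Rbx1, a ring-finger subunit of cullin ligases, rose in mouse iBAT by 1.02 ± 0.16, from 6.09 and 5.18 FPKM to 10.0 and 9.93 FPKM. Of the 6 genes of selenoprotein synthesis, Pstk, which makes the phosphorylated seryl-tRNA on the way to selenocysteine, rose in bat aWAT by 1.51 ± 0.17 (adjusted p = 0.00142) and Sephs1 by 0.81 ± 0.18. In mouse, Trnau1ap in iBAT and Eefsec in sWAT were the genes of this list called, both lower, by less than 0.4 on the log2 scale and lost with either scaling.

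Thrsp moved in mouse together with genes of fatty acid synthesis. Of 14 genes on the list of thyroid hormone response genes other than Thrsp, 8 were called higher in mouse iBAT and 9 in mouse sWAT, and 0 lower. Of all genes, 2.63% in iBAT and 6.71% in sWAT were called higher, and 10.2% and 26.5% lower. Fasn, fatty acid synthase, went from 226 and 340 FPKM to 3606 and 3294 FPKM in iBAT (3.93 ± 0.56). Acly, which makes cytosolic acetyl-CoA, rose by 4.27 ± 0.34 and Me1, malic enzyme, a source of NADPH for the same pathway, by 3.69 ± 0.47. In sWAT the changes were 3.72 ± 0.56 for Fasn, 3.28 ± 0.34 for Acly and 3.51 ± 0.47 for Me1. These 6 calls held with median-ratio and quantile scaling. Those in iBAT ended without any 1 library, and those in sWAT did not hold without each library. Hr and Klf9, receptor targets outside lipid synthesis, were not called in mouse: Hr changed by 0.98 ± 0.55 and 1.47 ± 0.55, Klf9 by -0.06 ± 0.21 and 0.82 ± 0.21. The tests are of the uncentred changes, and the median gene of sWAT stood at -0.37, so the verdict on Klf9 there can depend on the zero used.

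In the bat 0 of the 14 response genes were called in iBAT or sWAT, where few genes were called at all (1.94% and 1.08%), so these counts do not set the list apart. In bat aWAT, where 8.33% of all genes were called higher, 4 were called, all higher: Ucp1, Gpd2, Pck1 and Ppargc1a. Ucp1 went there from 3.18 and 2.67 FPKM to 7184 and 2939 FPKM (10.33 ± 0.36), and Gpd2, the mitochondrial glycerol phosphate dehydrogenase, rose by 2.90 ± 0.40. Fasn (-0.14 ± 1.28), Acly (0.52 ± 0.52) and Me1 (1.80 ± 0.66) were not called in bat aWAT.

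Among the regulators of lipid synthesis, Srebf1, the sterol regulatory factor for these genes, rose in both mouse depots (1.86 ± 0.21 in iBAT and 1.23 ± 0.21 in sWAT), and Mlxipl, the carbohydrate-responsive factor, rose in sWAT by 2.33 ± 0.42. Insig1, which holds back SREBP processing, rose in sWAT by 3.22 ± 0.36. Mid1ip1, the close relative of Thrsp, did not pass in either mouse depot (1.15 ± 0.50 in iBAT, adjusted p = 0.273, and 1.76 ± 0.50 in sWAT, adjusted p = 0.0691 by limma). In the bat 0 of the 10 regulators were called in any depot, beside 1.94%, 1.08% and 14.8% of all genes in iBAT, sWAT and aWAT, and 0 of 10 is near the first 2 of these shares.

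**Figure D3:**
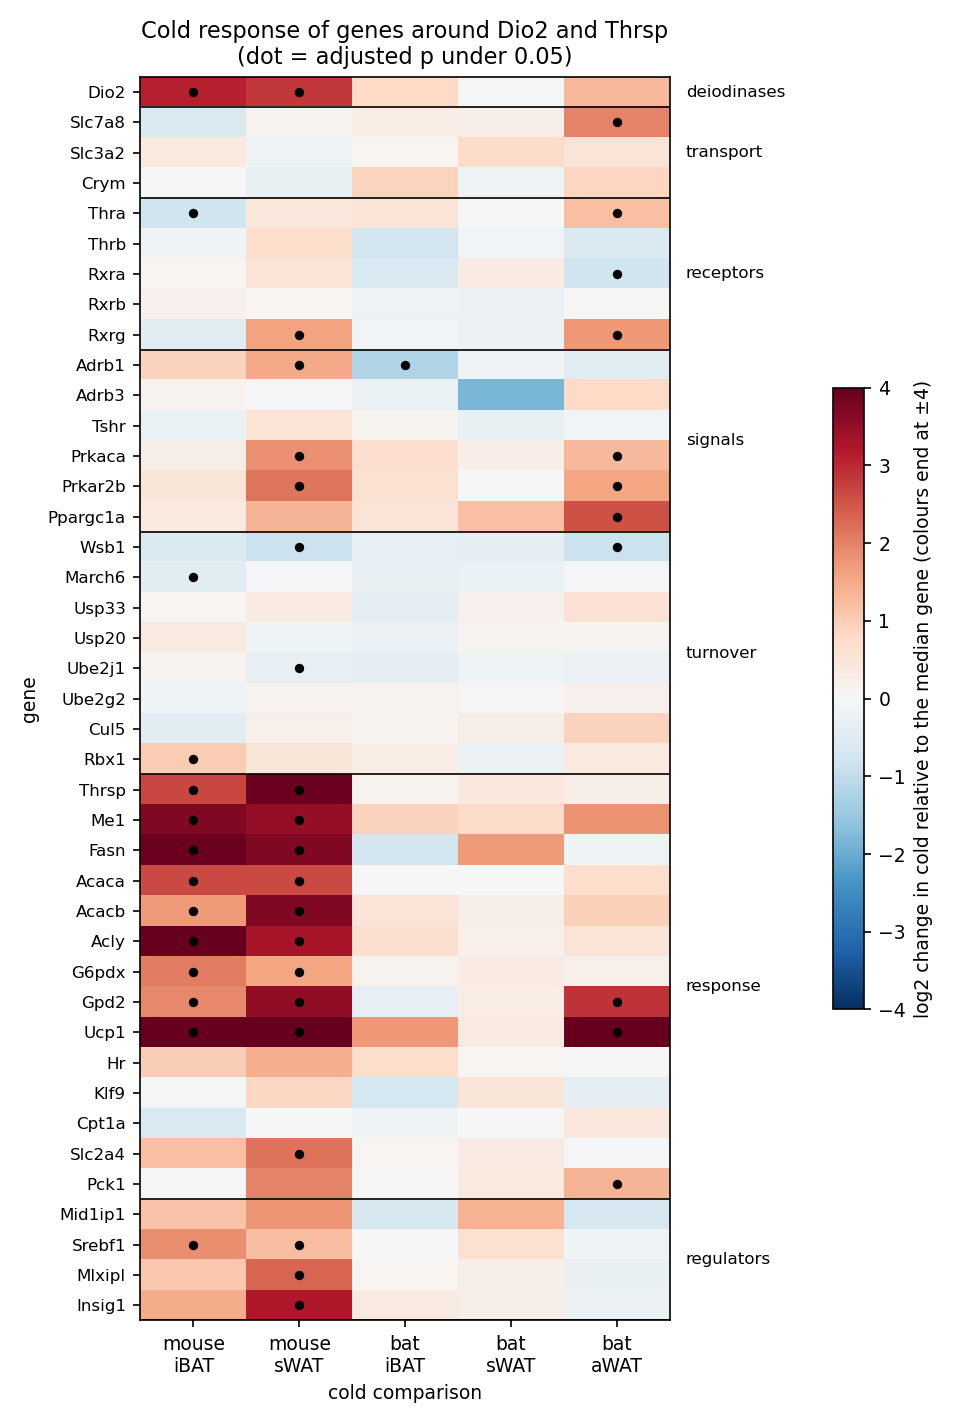
Log2 change in the cold relative to the median gene (colour, red higher, blue lower, ending at ±4) for genes around Dio2 and Thrsp, by role in rows and by cold comparison in columns, with a dot where the adjusted p was under 0.05. Thrsp, Me1, Fasn, Acaca, Acacb, Acly and G6pdx are red and dotted in both mouse columns and carry no dot in the 3 bat columns, while Gpd2, Ucp1 and Pck1 of the response group carry a dot in bat aWAT.

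Across libraries, the genes most like Dio2 and Thrsp were sought among those with a mean of at least 5 FPKM, by Pearson correlation of log2(FPKM + 1). These are descriptions: the libraries share groups of 2 and differ in cell makeup, and the genes were the highest of 6251 in mouse. In the 8 mouse libraries Dio2 was most like Cox20, Agpat2, Cox16, Gm9797 and Mrpl46 (all r = 0.98), of which Agpat2 is an enzyme of triglyceride synthesis and Cox20 and Cox16 are assembly factors of cytochrome c oxidase. Thrsp was most like Emc6, Gpd1, Pygl, Ppp1r3c and Lpin1 (r from 0.98 down to 0.97), among them a glycerol phosphate dehydrogenase, a glycogen phosphorylase and a phosphatidate phosphatase. In the 12 bat libraries the likeness was weaker. Dio2 came nearest to Dnajc2, Jagn1, Utp4, Alg9 and Nsun2 (r from 0.85 down to 0.83), and Thrsp to Pak6, Fam213a, Igsf6, Snap47 and Rab2a (r from 0.92 down to 0.82). No gene was among these 5 in both species for the same member. Bat Dio2 was at most 0.613 FPKM outside the cold males of aWAT (4.62 FPKM) and iBAT (1.41 FPKM). Its likeness in bat rests largely on these libraries.

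Dio2 and Thrsp followed each other in mouse (r = 0.87 over 8 libraries), while in bat r was -0.18 over 12. Bat Dio2 reached 1 FPKM only in the cold males of aWAT and iBAT. Its r values in bat rest largely on these libraries, and no difference between species is drawn from them. Thrsp followed Fasn in mouse (r = 0.96) and also in bat (r = 0.78). With Ucp1 the r of Thrsp was 0.94 in mouse and -0.23 in bat, and that of Dio2 was 0.91 and 0.45. In mouse both genes therefore ran with Ucp1 across depots and temperatures, while in bat Thrsp kept to the range from 229 to 767 FPKM as Ucp1 ran from 0.410 to 10404 FPKM.

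**Figure D4:**
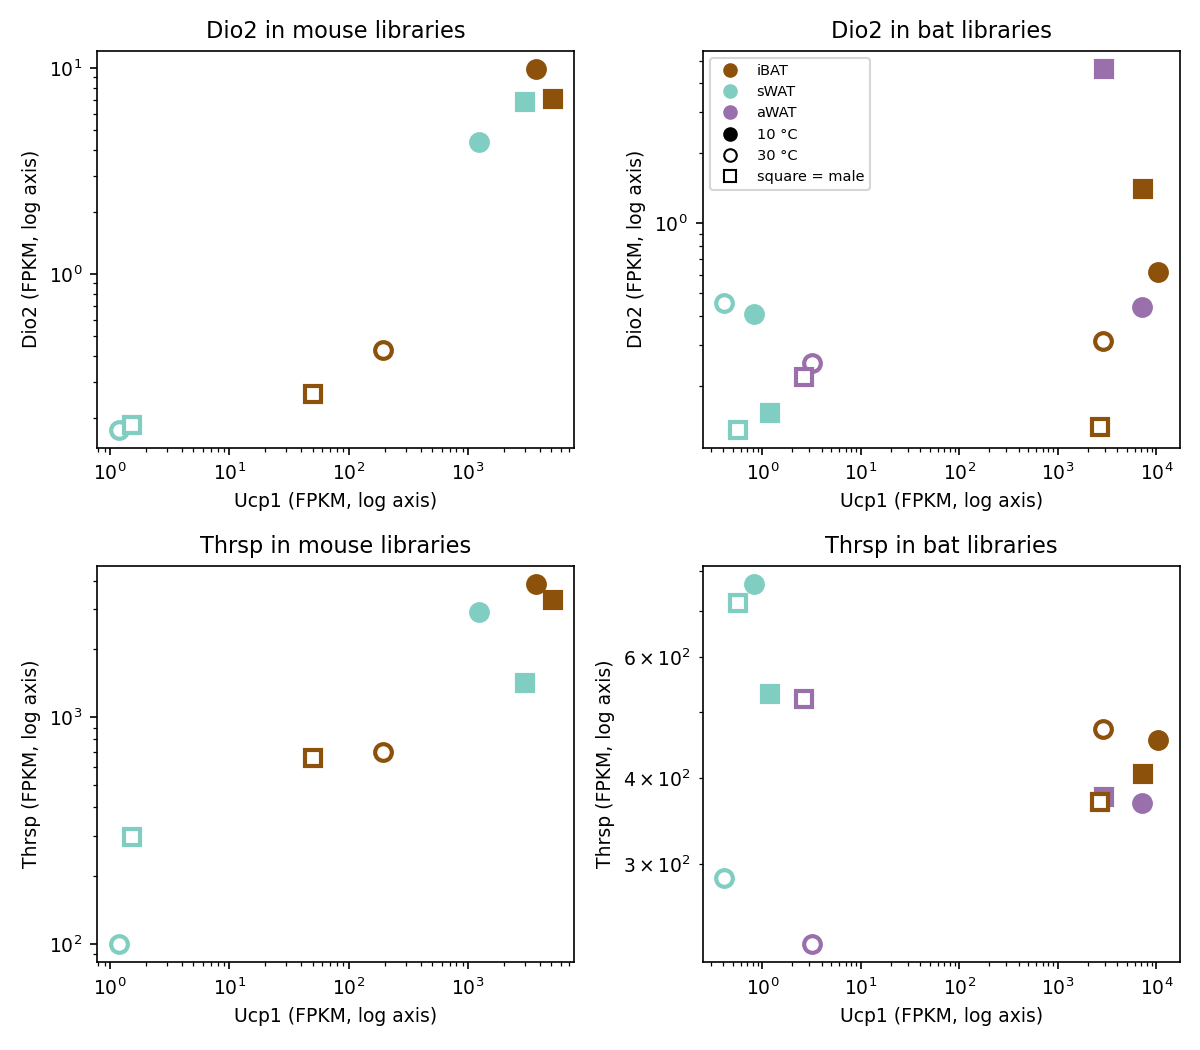
Dio2 (top) and Thrsp (bottom) against Ucp1 in the 8 mouse (left) and 12 bat (right) libraries, both axes in FPKM on log scales, with depots by colour, filled points for 10 °C, open points for 30 °C and squares for males. Mouse points run from low Ucp1 with low Dio2 and Thrsp to high values of all 3; bat Thrsp lies between 229 and 767 FPKM at any level of Ucp1.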

How the data were processed

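The authors deposited FPKM values for 14871 mouse Ensembl genes in 20 libraries, made per the labels from RNA of a lipid tissue kit with a standard Illumina protocol. The submitters' processing notes name CASAVA 1.8. Which aligner, counter, genome build and bat-to-mouse assignment were used was not given in the sources used here. Symbols were found for 14723 genes, and 148 had none. No counts were used here, so counting intervals could not be given, and relative depth came from near-whole ratios of values under 0.3 FPKM, within 0.5%.

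A gene was tested in a species if 2 or more of its libraries reached 1 FPKM, which left 10689 mouse genes, 11025 bat genes and 9400 in common. Values were taken as log2(FPKM + 1) and fitted by group per species, and in 1 fit of 20 libraries for differences between species, with limma 3.58.1 in R 4.3.3. All tests are two-sided, with Benjamini-Hochberg adjustment over all genes of a comparison and calls under 0.05. Changes and 95% intervals are printed less the median of all genes, but p-values and calls are those of the uncentred coefficients, so a call and a printed sign can rest on different zeros. Groups of 2 share the spread of all groups in the fit. The fit was also run on simulated independent normal values with planted changes. That run held no shift of the median gene, no differences in cell makeup and no shared animals, so it does not bear on how far the calls hold.

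The 2 genes and the lists around them were chosen with earlier results of these data known. Genes named are all deiodinases, transporters and receptors in the table, up to 4 called genes of each other list per comparison, by size with both sexes in that direction and a group mean of at least 5 FPKM, a fixed set (Ucp1, Me1, Fasn, Acly, Srebf1, Mlxipl, Mid1ip1, Adrb3, Ppargc1a, Klf9, Hr, Wsb1 and Usp33), and the 5 genes most like each member. Not every gene this gives is printed, and some list genes enter the counts but are not reported here. Alternatives were the pseudocount, the filter, 3 other scalings, a mean-variance trend, fits of only the groups compared, sex as a block, and leaving out each library.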

Additional observations from a re-analysis of the deposited data

Results flagged for a closer look

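The cold response of sWAT differed between the species for both genes, by a test of the difference itself: bat less mouse was -2.88 for Dio2 and -3.48 for Thrsp on the log2 scale. Dio2 had passed the filter of that fit only through cold libraries. The mouse sWAT libraries differ in B lymphocyte and fat cell markers and the bat cold sWAT libraries carry muscle RNA (summed markers 385 and 817 FPKM against 17.0 and 6.72 FPKM warm), and the part of either was not tested.

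In the bat the sexes moved opposite ways for Thrsp in every depot, with 1 library per sex and temperature and no test of the difference. The cold to warm ratio of Thrsp was 2.68 in females and 0.738 in males in sWAT, 1.60 and 0.720 in aWAT, and 0.964 and 1.10 in iBAT. In iBAT both ratios were thus near 1, and the male ratio was the higher, the reverse of sWAT and aWAT. For Dio2 the ratios lay on opposite sides of 1 in bat sWAT, with 0.900 in females and 1.18 in males, where the highest value was 0.453 FPKM.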

How the results depend on the processing

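Changes are log2 and relative to the median gene. With only the groups compared, mouse sWAT kept 2.82 (Dio2) and 3.92 (Thrsp) but lost both calls, the species differences in iBAT gained calls (-2.32 and -2.55), and that of Thrsp in sWAT lost it (-3.48). Thrsp in mouse iBAT lost its call without a filter (2.56) and with quantile normalization (2.04). With median-ratio scaling Dio2 gained a call for iBAT against sWAT in cold mice (1.11) and for the iBAT species difference (-2.51). Of uncalled values, quantile normalization turned Thrsp in bat iBAT (-0.13) and aWAT (-0.26), warm iBAT against aWAT (-0.061) and the iBAT less aWAT response (0.14), and Dio2 in warm bat iBAT against sWAT (0.020, and 0.063 without the 10 highest genes). A pseudocount of 0.1 turned the mouse iBAT less sWAT response of Dio2 (-0.029). In all, 3 Dio2 and 4 Thrsp values turned under such settings, none of them called. The causes were not tested.

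Leaving out 1 library at a time gave, for Dio2, 2.90 to 3.29 in mouse iBAT, 2.44 to 3.20 in mouse sWAT, -0.23 to 0.082 in bat sWAT and 0.46 to 2.22 in bat aWAT. It gave 0.59 to 1.38 for iBAT against sWAT in cold mice, -0.14 to 0.13 for warm bat iBAT against sWAT, -1.28 to 0.52 for cold bat iBAT against aWAT, -0.29 to 0.0060 and 0.36 to 2.15 for warm and cold bat aWAT against sWAT. The responses of Dio2 ran from -0.10 to 0.69 for mouse iBAT less sWAT, from -1.42 to 0.38 for bat iBAT less aWAT, from 0.51 to 2.29 for bat aWAT less sWAT, and from -3.25 to -2.51 for bat less mouse sWAT. For Thrsp the ranges were 2.58 to 2.77 in mouse iBAT, 3.09 to 4.75 in mouse sWAT, -0.034 to 0.30 in bat iBAT, -0.27 to 1.12 in bat sWAT and -0.39 to 0.85 in bat aWAT. They were 1.72 to 3.37 for warm mouse iBAT against sWAT, -0.76 to 0.65 and -0.21 to 1.04 for warm bat iBAT against sWAT and aWAT, and -1.18 to 0.22 for warm bat aWAT against sWAT. The responses of Thrsp ran from -0.98 to 0.42 for bat iBAT less sWAT, from -0.69 to 0.55 for iBAT less aWAT, from -0.92 to 0.51 for aWAT less sWAT, and from -4.30 to -2.66 for bat less mouse sWAT.

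List genes called lower numbered 2 with median-ratio scaling and 1 with quantile normalization in mouse iBAT, and 1, 2 and, with a pseudocount of 0.1, 5 in mouse sWAT. In bat aWAT they numbered 5 with quantile normalization and 6 without the 10 highest genes. Bat iBAT had 0 lower with a pseudocount of 0.1 and both scalings, 2 lower without a filter, and 1 higher without a filter or with a minimum of 5 FPKM. Without 1 library (chosen after seeing the data), counts were 0 and 0 in mouse iBAT, 3 to 18 higher and 0 to 13 lower in mouse sWAT, 0 lower in bat iBAT, 0 to 1 lower in bat sWAT, and 5 to 8 higher and 0 to 5 lower in bat aWAT. Of 18 list genes called in mouse iBAT, 25 in mouse sWAT and 15 in bat aWAT, 0, 3 and 4 were called without each library, and 11, 14 and 14 with both scalings. The higher share of all calls moved from 20.5% to 63.7% with median-ratio scaling in mouse iBAT (626 higher, 356 lower) and from 20.2% to 60.9% in mouse sWAT (1130 higher, 727 lower). Groups of 2, unknown read totals and Dio2 values under 1 FPKM in most bat libraries limit what these data can show. The labels carry no replicate numbers. Each group holds 1 library of each sex, and a fit with sex as a block, which pairs the female and the male libraries across groups, changed no call of either gene.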

Other observations

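The sexes were set side by side in the warm bat libraries, a comparison chosen after the values were seen and given without a test. The female library was the lower for 8 of the 14 other response genes and 6 of the 10 regulators in sWAT, and for the same numbers in aWAT, against 6 of 14 and 6 of 10 in iBAT, so neither list as a whole was low in the females. It was under 0.5 of the male value for 5 response genes and 4 regulators in sWAT, 3 and 2 in aWAT and 1 and 0 in iBAT. Acaca, acetyl-CoA carboxylase, was the higher in females (1.89 and 1.42 FPKM in sWAT, 2.06 and 0.969 FPKM in aWAT), while the following genes were lower. In warm bat sWAT, female and male libraries had 25.9 and 365 FPKM of Fasn, 13.9 and 145 FPKM of Mid1ip1, 11.7 and 40.2 FPKM of Me1, 12.4 and 41.2 FPKM of Acly and 26.1 and 59.8 FPKM of Srebf1. In warm bat aWAT the female and male values were 30.4 and 220 FPKM of Fasn, 45.4 and 141 FPKM of Mid1ip1, 11.0 and 27.1 FPKM of Me1, 13.2 and 36.1 FPKM of Acly and 41.6 and 62.9 FPKM of Srebf1. Thrsp itself was 286 against 720 FPKM and 229 against 521 FPKM. In warm bat iBAT the female Thrsp was the higher, 472 against 369 FPKM, with 46.3 and 60.5 FPKM of Fasn. Fat cell markers summed to 7176 and 10579 FPKM in the warm female and male sWAT libraries and to 8562 and 10899 FPKM in aWAT, and their part was not tested. The labels do not say whether the 2 female libraries came from 1 animal.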
